A study of Rattus norvegicus with 6 samples.

Results

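Aminoacyl-tRNA synthetases are the enzymes that join each amino acid to its transfer RNA. They were followed here in rat hind-limb muscle with and without acute osteofascial compartment syndrome (ACS), a condition in which swelling in a fascia-bound space starves the muscle of blood. Members were the rows of the deposited gene table whose symbol is a synthetase symbol (a one-letter amino acid code followed by "ars", with or without 1 or 2, and Farsa, Farsb and Eprs). This rule found 38 rows of 30957, carrying 37 symbols. Of these rows 20 belong to cytosolic enzymes and 18 to mitochondrial enzymes, whose symbols end in 2. Mitochondrial Ears2 has 2 rows, and Mars2, the mitochondrial methionine enzyme, was listed at 0 counts in all 6 libraries.

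RNA came from the flexor digitorum longus, a toe-flexing muscle of the hind limb, of wild-type Sprague-Dawley rats. The control group held 3 libraries taken at 0 h and the ACS group 3 libraries taken at 18 h, after a low-elastic band had been tied tightly around the skin over the knee. They are called Control 1 to 3 and ACS 1 to 3 after the replicate numbers in their titles. The treatment field reads ACS for the control libraries too, so the group names rest on the titles and times, and the labels do not say whether each library is a separate rat. The p-values therefore measure only the spread between these libraries, which may be technical in part.

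Synthetases decide which amino acid each codon receives, and they work in separate sets for the cytosol and for the small translation system inside mitochondria. Both sets are encoded in the nucleus. Several cytosolic enzymes sit in a multisynthetase complex held by the scaffold proteins Aimp1, Aimp2 and Eef1e1, while most others are free. Many cytosolic synthetase genes are textbook targets of ATF4, the transcription factor made when the integrated stress response slows general translation. ATF4 binds, with a C/EBP partner, a composite DNA element called the C/EBP-ATF response element. Mammals use 1 gene for both compartments in the case of glycine (Gars) and lysine (Kars), and charge mitochondrial glutamine transfer RNA through an amidation step.

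The letters of this element are shown first, since the cytosolic genes that hold them are those to which the values below return. Each line gives, for a gene with such letters, up to 10 bases on either side of a match to TGATGNAAN (N is any base), written 5′ to 3′ on the strand that carries it, with the match in capitals. The sequences are RefSeq promoter windows of the rat build GRCr8, from 250 bases before to 50 bases after the annotated start, searched on both strands.
Aars, chr19:55908480-55908508, minus strand: cagagcgctcTGATGAAAAgtgacccgct
Cars, chr1:208225335-208225363, plus strand: ttccagaatcTGATGCAACcgcggcgccg
Iars, chr17:15193659-15193687, plus strand: cgtctggaggTGATGCAATactgacagtg
Mars, chr7:65023753-65023781, plus strand: gagcccacgcTGATGCAACcggaacgggc
Nars, chr18:60275778-60275806, minus strand: ctaggtgatcTGATGCAACgcttcagtca
Tars, chr2:62114812-62114840, plus strand: gctaaccagcTGATGCAACgggacgccag
Yars, chr5:146820191-146820212, plus strand: cgagctcagcTGATGCAACctg
The Yars line is shorter because its match lies near the end of the window.

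A match was present in 7 of the 17 cytosolic promoters that could be searched and in 0 of 16 mitochondrial ones, against 3.97% of 33469 rat promoter windows of the same length. RefSeq calls the same genes Aars1, Cars1 and so on. The matches printed begin 14 bases before the start in Nars, 18 in Mars, 25 in Iars and 28 in Tars, and at position 9 after it in Aars, 17 in Cars and 39 in Yars. The Nars and Yars letters run in the direction of the gene, and the others run opposite to it. Of the other motifs, the E-box CACGTG stood in 5 of 17 cytosolic and 1 of 16 mitochondrial promoters (6.42% of all windows), the NRF1 motif GCGCANGCG in 3 and 4 (5.80%), the interferon-type motif GAAANNGAA in 0 and 1 (9.71%) and the STAT-type motif TTCNNNGAA in 3 and 2 (8.87%). A match is only a run of letters and was not tested for binding. Gars and Rars were among the genes not searched.

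No synthetase passed the test across all genes. The median log2 fold change of the cytosolic genes was 0.29 and that of the mitochondrial rows -0.47 on TMM-scaled counts, and the cytosolic one turned to -0.04 by library totals and on FPKM. The test was edgeR's quasi-likelihood test with Benjamini-Hochberg adjustment over 12873 genes, and at its threshold of 0.05 it called 442 genes (3.43%) higher and 91 (0.707%) lower in ACS libraries. All 20 cytosolic rows and 17 of the 18 mitochondrial rows passed the filter on low counts, and 0 were called in either direction. At an unadjusted p under 0.05, edgeR had 4 cytosolic genes higher (Tars, Nars, Aars and Cars) and 0 lower, where 15.5% of all genes were higher and 7.98% lower. The mitochondrial rows had 0 higher and 4 lower, namely both Ears2 rows, Nars2 and Cars2. By library totals and on FPKM, 0 members of either set were higher at this level and 8 were lower. The share of all genes at this level on those scales is not given here, so these counts have no background beside them. On those scales the median of all genes was also lower, at -0.32 by library totals and -0.30 and -0.37 on FPKM with pseudocounts of 1 and 0.1. DESeq2 called 1 cytosolic row higher (Tars) and 1 mitochondrial row lower (the shorter Ears2 row), and limma-voom called 0.

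Groups that do not overlap, so that every ACS library lay on one side of every control library, were counted on CPM (counts relative to library size) scaled by TMM. This factor is set so that most genes stay level between libraries. In 8 of 20 cytosolic genes the ACS libraries were all higher (Aars, Cars, Eprs, Hars, Iars, Nars, Tars and Yars) and in 0 all lower. In 7 of 17 mitochondrial rows they were all lower (Cars2, both Ears2 rows, Hars2, Nars2 and Vars2 among them) and in 0 all higher. Over all genes 16.7% were separated upward and 14.8% downward. The log2 fold changes ran from -0.34 for Farsb to 0.92 for Tars among cytosolic genes and from -1.54 for the shorter Ears2 row to 0.09 for Lars2 among mitochondrial rows, beside a median of -0.01 over all genes tested. With library totals in place of TMM, all genes had a median of -0.32. The cytosolic median lay above the median of all genes and the mitochondrial median below it on both scales. Single genes did not all follow: with TMM 7 of 20 cytosolic genes were below 0 and 2 of 17 mitochondrial rows above 0. By library totals 3 cytosolic genes were separated upward (Cars, Nars and Tars; 9.47% of all genes) and 2 downward (Farsb and Qars; 27.3% of all genes), and 11 mitochondrial rows were separated downward.

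**Figure D1:**
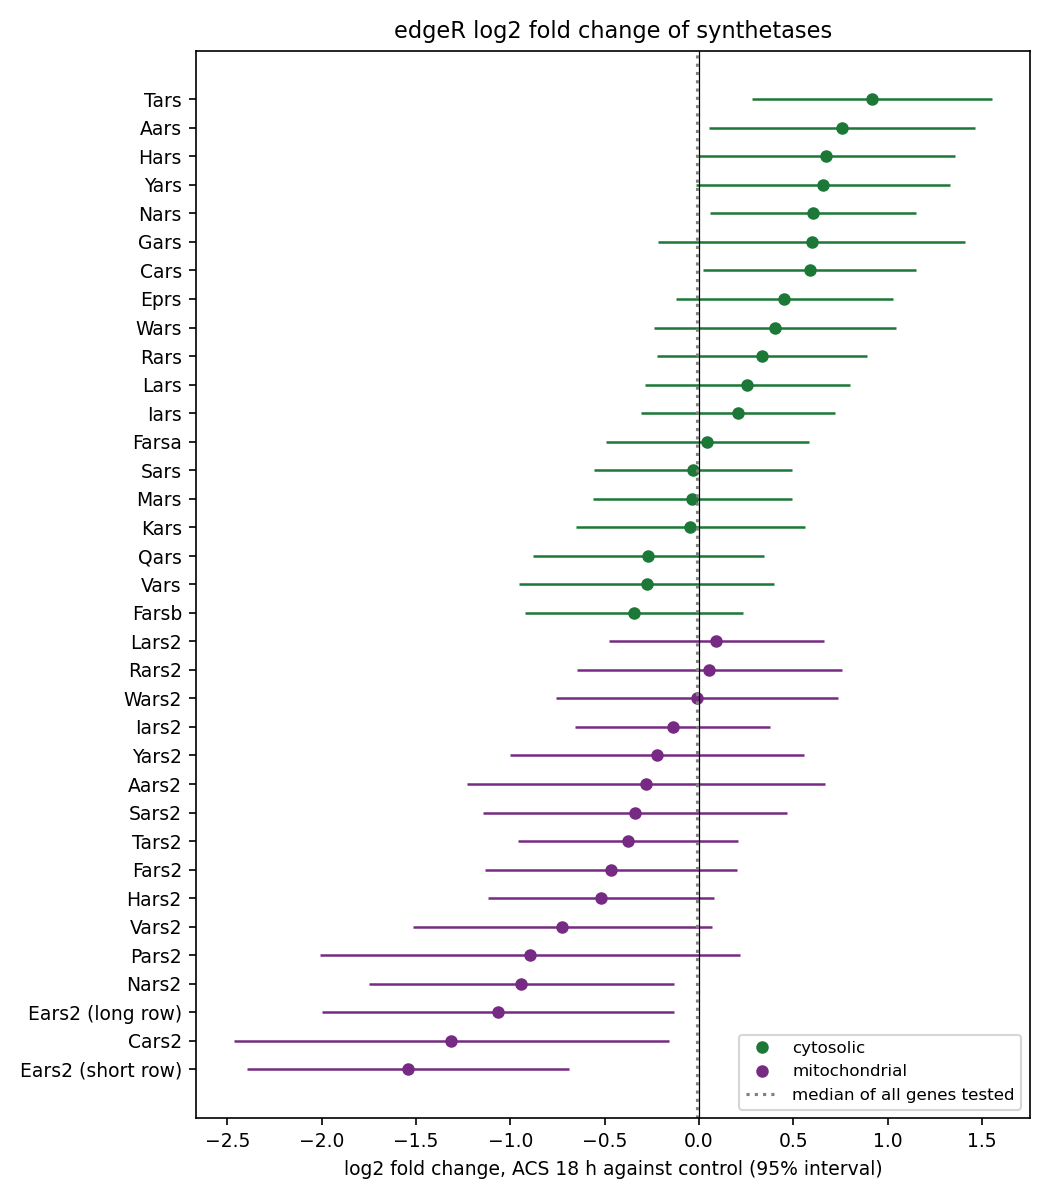
Log2 fold change of the synthetases described here in ACS muscle at 18 h against control muscle (x axis, edgeR fit on TMM-scaled counts), with 95% intervals as lines, cytosolic genes in green and mitochondrial rows in purple. The dotted line marks the median of all genes tested, -0.01. Tars has the highest cytosolic value at 0.92 and the shorter Ears2 row the lowest mitochondrial one at -1.54.

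ACS 1 stood apart from the other libraries. Transcripts of the mitochondrial genome took 43.4% of its counts, against 4.82% and 5.33% in ACS 2 and ACS 3 and 7.52% to 8.60% in controls. Library totals ran from 14340865 to 21003928 counts. Muscle fibre markers were present at high levels: the 8 matched of 10 summed to between 127788 and 151072 CPM in controls and between 84897 and 206293 in ACS libraries, with 0 called by edgeR, limma-voom or DESeq2 and 0 at an unadjusted p under 0.05. All 5 tested neutrophil markers rose, their sum running from 1.31 to 5.95 CPM in controls and from 24.9 to 362 in ACS libraries, with ACS 1 highest. With control levels this low, they could pass the filter through the ACS libraries. The 3 other neutrophil markers (Ngp, Mpo and Camp) and all 6 lymphocyte markers did not pass the filter on low counts. Of 8 macrophage markers 1 rose (Gpnmb), with sums of 26.6 to 41.3 and 42.2 to 230.2 CPM. At an unadjusted p under 0.05 edgeR had 5 of them higher and 1 lower, Adgre1 (log2 fold change -1.30). Of 5 red cell markers 2 rose (Alas2 and Hbb), with sums of 445 to 1222 and 1748 to 10332 CPM. Over all genes edgeR called 3.43% higher, and 15.5% were higher at an unadjusted p under 0.05. The 6 fibroblast markers (696 to 1081 and 2342 to 2969 CPM) and 5 endothelial markers (212 to 326 and 167 to 499.9 CPM) had 0 called by edgeR or limma-voom. At an unadjusted p under 0.05 edgeR had 5 of these fibroblast and 0 of these endothelial markers higher, and DESeq2 called 2 (Col1a1 and Col3a1) and 0. The part of these cells in the synthetase values was not tested, and in bulk muscle fewer cells of a type cannot be told apart from less RNA per cell.

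The medians of the 3 ACS libraries differed in size and shared a direction. The median deviation of the 20 cytosolic genes from their control mean, on the log2 CPM scale, was 0.02, 0.02 and -0.01 in Control 1, 2 and 3 and 0.51, 0.23 and 0.10 in ACS 1, 2 and 3. For the 17 mitochondrial rows it was 0.10, 0.01 and -0.05 in the controls and -0.99, -0.35 and -0.13 in the ACS libraries. By these medians ACS 1 lay farthest from the controls and ACS 3 nearest, for both sets. Single cytosolic genes were mixed: 12, 17 and 12 of 20 lay above their control mean in ACS 1, 2 and 3, against 13, 12 and 9 in Control 1, 2 and 3. Of the 17 mitochondrial rows 16, 13 and 13 lay below it in ACS 1, 2 and 3, against 6, 8 and 12 in Control 1, 2 and 3. The difference between the medians of the sets ran from -0.08 to 0.04 in controls and was 1.497, 0.588 and 0.238 in ACS 1, 2 and 3. Control 3 and ACS 3 carry the letters "ji" in their descriptions, whose meaning the labels do not give. Without both of them the cytosolic median was 0.36 and the mitochondrial one -0.64, and between those 2 libraries alone the difference between the sets went from 0.04 in Control 3 to 0.24 in ACS 3.

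**Figure D2:**
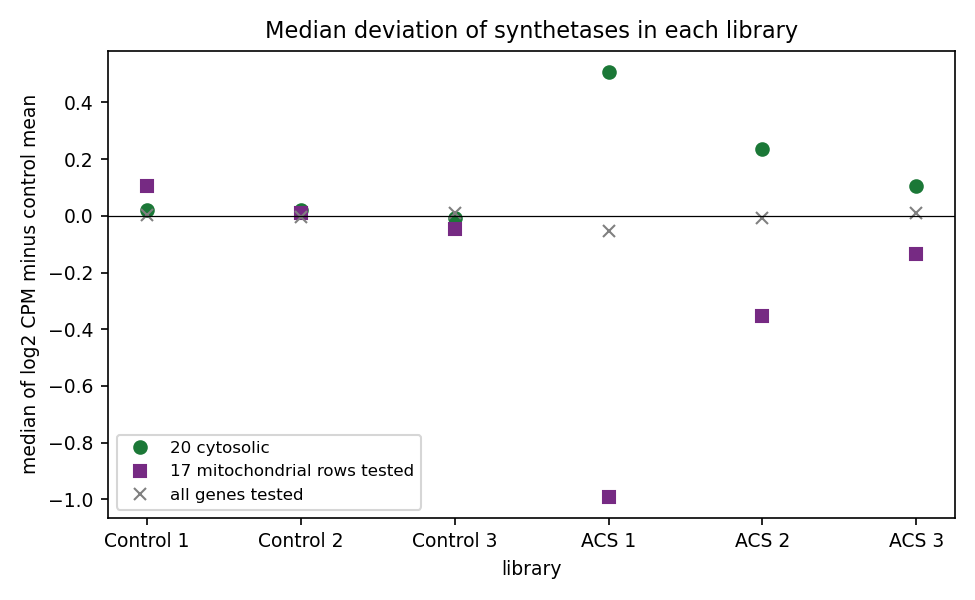
Median deviation from the control mean (y axis, log2 CPM) in each of the 6 libraries (x axis) for the 20 cytosolic genes (circles), the 17 tested mitochondrial rows (squares) and all genes tested (crosses). The circles lie above and the squares below 0 in all 3 ACS libraries, widest apart in ACS 1 (0.51 and -0.99) and closest in ACS 3 (0.10 and -0.13).

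Among cytosolic enzymes, the lowest p belonged to Tars, which charges threonine transfer RNA. Its level was 33.0, 34.6 and 34.5 CPM in Control 1, 2 and 3 and 84.8, 62.8 and 45.4 CPM in ACS 1, 2 and 3. All 3 ACS libraries were above all controls, whose own spread was small (34.1 ± 0.905 CPM against 64.3 ± 19.7 CPM, SD, n = 3 each). The log2 fold change was 0.92 (SE 0.279; edgeR adjusted p = 0.0945), and it was 0.67 without ACS 1. Tars passed without ACS 3 (log2 fold change 1.11, edgeR adjusted p = 0.0295), in DESeq2 (adjusted p = 0.0438) and in limma-voom with quality weights (adjusted p = 0.0451), and adjusted p ran from 0.0295 to 0.315 over its 20 alternatives. The gene (ENSRNOG00000019023) spans chr2:61394770-61414102 on the minus strand of Rnor 6.0.

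Nars, the asparagine enzyme, measured 52.9, 58.2 and 59.0 CPM in the controls and 103, 82.9 and 73.1 CPM in ACS 1, 2 and 3. Every ACS library was higher than every control, and ACS 3 was again the nearest to them. The log2 fold change was 0.61 (SE 0.239; edgeR adjusted p = 0.172), with 0.46 without ACS 1. Nars (ENSRNOG00000017852) lies at chr18:59986360-60002569, minus strand, on Rnor 6.0. Aars, the alanine enzyme, measured 111, 97.4 and 94.9 CPM in the controls and 236, 162 and 115 CPM in the ACS libraries. Its groups did not overlap, although ACS 3 exceeded Control 1 by little. The log2 fold change of Aars was 0.76 (SE 0.311; edgeR adjusted p = 0.185), or 0.45 without ACS 1. Aars (ENSRNOG00000018404) lies at chr19:43193257-43215281, minus strand, on Rnor 6.0.

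Of the other cytosolic genes with separated groups, Hars (histidine) had a log2 fold change of 0.67, Yars (tyrosine) 0.66, Cars (cysteine) 0.59, Eprs (the fused glutamate and proline enzyme) 0.45 and Iars (isoleucine) 0.21. Without ACS 1 the values were 0.34 for Hars, 0.33 for Yars, 0.43 for Cars, 0.38 for Eprs and 0.25 for Iars. Iars was separated by far less than the spread of its controls, with 46.28 CPM as the highest control and 46.32 CPM as the lowest ACS value. Gars, which serves both compartments, rested on 1 library: it measured 54.3, 46.5 and 51.9 CPM in the controls and 123, 53.7 and 54.0 CPM in ACS 1, 2 and 3. Its log2 fold change of 0.60 became 0.08 without ACS 1. Kars, the other gene of both compartments, had overlapping groups and a log2 fold change of -0.05.

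The remaining cytosolic genes described here had overlapping groups and log2 fold changes from -0.34 to 0.40. Wars (tryptophan) was at 0.40, Rars (arginine) at 0.33, Lars (leucine) at 0.25 and Farsa, the alpha subunit of the phenylalanine enzyme, at 0.04. Sars (serine) was at -0.03, Mars (methionine) at -0.04, Qars (glutamine) at -0.27, Vars (valine) at -0.28 and Farsb, the beta subunit, at -0.34. Without ACS 1 Wars was at 0.21, Rars at 0.21, Lars at 0.14, Qars at -0.08, Vars at -0.06 and Farsb at -0.21. The 2 subunits of the phenylalanine enzyme thus had values of opposite sign, and the 95% intervals of both included 0 (-0.49 to 0.58 for Farsa and -0.92 to 0.24 for Farsb).

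**Figure D3:**
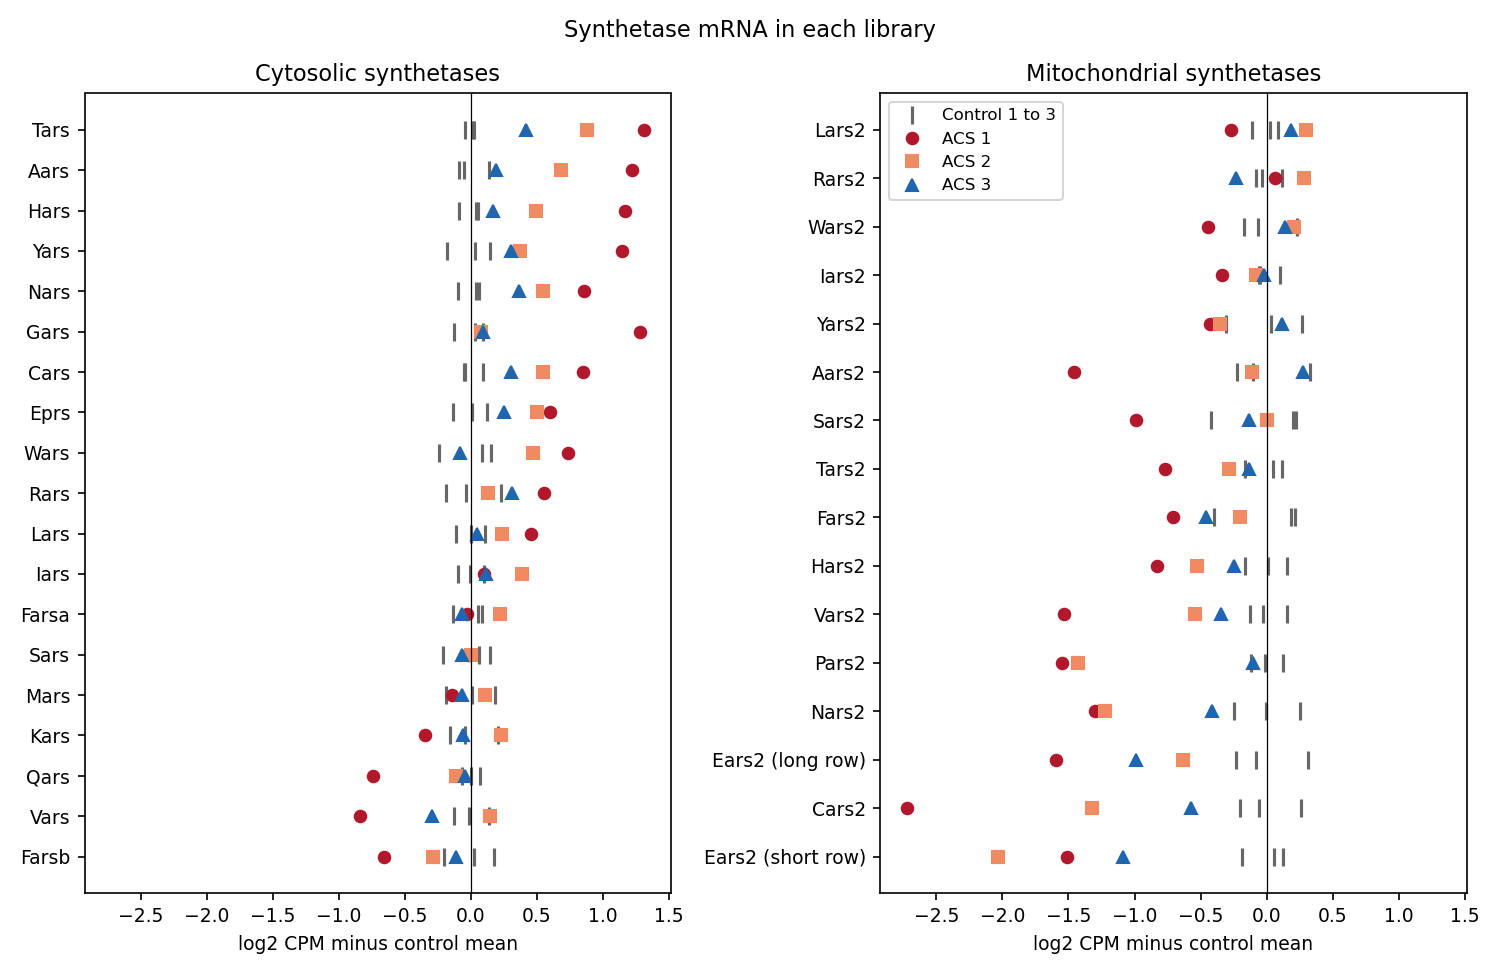
Log2 CPM of the synthetases described here minus its control mean (x axis) in each library, with cytosolic genes on the left and mitochondrial rows on the right, ordered by log2 fold change. Grey ticks are the 3 controls, and the coloured symbols are ACS 1 (circle), ACS 2 (square) and ACS 3 (triangle). Most cytosolic symbols at the top lie right of the ticks, most mitochondrial symbols at the bottom lie left of them, and ACS 1 is often the farthest.

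The cytosolic genes were also read by the complexes and classes they belong to. The 8 enzymes of the multisynthetase complex (Eprs, Iars, Kars, Lars, Mars, Qars and Rars among them) had a median log2 fold change of 0.08, with 4 above 0 and 2 separated upward. The 12 other cytosolic genes had a median of 0.59, with 9 above 0 and 6 separated upward, and all 4 genes with an unadjusted p under 0.05 in edgeR were among them. The 2 sets were not tested against each other. Class I enzymes, built on a Rossmann fold, had a median of 0.25 over 9 genes and class II enzymes 0.32 over 10, with Eprs counted in neither. The 13 cytosolic genes listed as ATF4 targets had a median of 0.45, with 7 separated upward, and the 7 others -0.05 with 1 separated upward (Hars). These counts are on TMM-scaled CPM, where 16.7% of all genes were separated upward. By library totals only Cars, Nars and Tars of the cytosolic genes were separated upward, beside 9.47% of all genes. ATF4 target status was taken from general knowledge of the mammalian genes.

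Grouping by the promoter letters gave a similar split, drawn in part on the same genes. The 7 with a match are all among the listed ATF4 targets, so the splits are not independent. The 7 cytosolic genes with the TGATGNAAN match had a median log2 fold change of 0.61. On TMM-scaled CPM 6 of them were separated upward (16.7% of all genes), and Mars was the exception at -0.04. By library totals only Cars, Nars and Tars were separated upward (9.47% of all genes). The 10 searched genes without a match had a median of 0.01, with 5 above 0 and 2 separated upward (Eprs and Hars). Without ACS 1 the medians were 0.43 and 0.08. No test was made of this split.

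**Figure D4:**
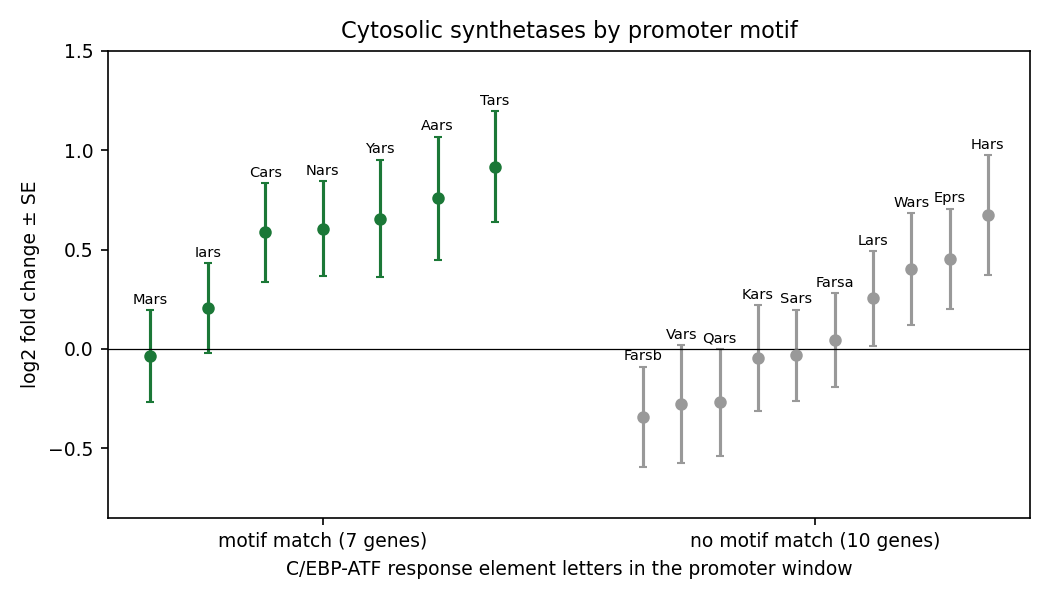
Log2 fold change (y axis, ± SE of the edgeR fit) of the 7 cytosolic synthetases whose promoter window holds the element's letters (green, left) and the 10 whose window does not (grey, right). The left group has 6 of 7 genes above 0 and a median of 0.61, the right group 5 of 10 and a median of 0.01.

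Levels between genes were compared on FPKM, the authors' values per gene length and library total. In control muscle the most abundant cytosolic synthetases were Kars at 74.0 ± 9.53 FPKM, Qars at 47.5 ± 2.00, Sars at 37.6 ± 4.11 and Eprs at 35.7 ± 3.87 (SD, n = 3 each). The Sars and Eprs levels differed by less than their spread. The least abundant were Wars at 6.95 ± 0.842, Cars at 7.60 ± 0.283 and Iars at 7.67 ± 0.439 FPKM, which also lay within their spread of each other. Among mitochondrial enzymes Tars2 (20.2 ± 1.46 FPKM) and Iars2 (18.0 ± 0.735) led, and Pars2 was the lowest of those with counts, at 1.01 ± 0.108 FPKM. The summed FPKM of the cytosolic genes was 463, 493 and 486 in Control 1, 2 and 3 and 399, 505 and 430 in ACS 1, 2 and 3, so the groups overlapped. The mitochondrial sum was 109.5, 107 and 102 FPKM in the controls and 40.4, 77.5 and 81.3 in the ACS libraries, all lower. The ratio of the sums was 4.22, 4.61 and 4.77 in controls and 9.89, 6.52 and 5.29 in ACS libraries, all higher.

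Among mitochondrial rows, the lowest p belonged to the shorter of the Ears2 rows. Ears2 charges glutamate transfer RNA, and in mitochondria also the glutamine transfer RNA that is then amidated. The shorter row (ENSRNOG00000018925, chr1:253296796-253298364, minus strand, Rnor 6.0) measured 6.34, 6.05 and 5.08 CPM in the controls and 1.97, 1.34 and 2.68 CPM in ACS 1, 2 and 3. Every ACS library was below every control, and here ACS 2, not ACS 1, was the lowest. The log2 fold change was -1.54 (SE 0.375; edgeR adjusted p = 0.0560), and it was also -1.54 without ACS 1, where it passed (edgeR adjusted p = 0.0491). It passed without ACS 3 too (log2 fold change -1.84, edgeR adjusted p = 0.0265), and over 19 alternatives adjusted p ran from 0.00473 to 0.212, with 9 past the threshold.

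The longer Ears2 row (ENSRNOG00000025353, chr1:191997512-192025350, minus strand) measured 4.14, 3.14 and 2.81 CPM in the controls and 1.03, 2.11 and 1.62 CPM in ACS 1, 2 and 3, with separated groups and a log2 fold change of -1.06 (SE 0.410; edgeR adjusted p = 0.163). These rows share a symbol. They were given the same RefSeq promoter, but promoters could be assigned by symbol alone, so this does not show that the rows are the same gene. The shorter one spans far fewer bases, and whether it is a separate working gene was not tested. No source used here says how reads matching both rows were counted. The counts of the 2 rows were therefore also summed, a choice made after the values were seen. The sum was 10.5, 9.19 and 7.89 CPM in the controls and 2.99, 3.45 and 4.30 CPM in the ACS libraries. Its log2 fold change was -1.35 (SE 0.312), just inside the threshold (edgeR adjusted p = 0.04995). With the longer Ears2 row alone counted, the 16 mitochondrial rows tested had a median of -0.42 on TMM-scaled counts. Of them 6 were separated downward (14.8% of all genes), and 3 had an unadjusted p under 0.05 downward in edgeR (7.98% of all genes).

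Nars2, the mitochondrial asparagine enzyme (ENSRNOG00000011476, chr1:161922141-162034700, plus strand), measured 7.90, 11.2 and 9.33 CPM in the controls and 3.74, 3.96 and 7.03 CPM in the ACS libraries. ACS 1 and ACS 2 lay close together and ACS 3 just under the lowest control. The log2 fold change was -0.94 (SE 0.355; edgeR adjusted p = 0.156). Cars2, the mitochondrial cysteine enzyme (ENSRNOG00000014526, chr16:83288664-83325699, plus strand), measured 9.61, 7.69 and 6.94 CPM in the controls and 1.12, 3.14 and 5.36 CPM in ACS 1, 2 and 3. Its ACS libraries were all lower, with ACS 1 far below the others on 12 counts. The log2 fold change was -1.31 (SE 0.506; edgeR adjusted p = 0.163), or -0.93 without ACS 1. Without ACS 3, Nars2 (edgeR adjusted p = 0.0416), Cars2 (0.0458) and Pars2, the proline enzyme (0.0486), passed with the shorter Ears2 row.

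Other mitochondrial rows with separated groups were Vars2 (valine, log2 fold change -0.72) and Hars2 (histidine, -0.52). Pars2 was at -0.90 with overlapping groups, since ACS 3 (2.73 CPM) reached the lowest control (2.71 CPM). Fars2 (-0.47), Tars2 (-0.38), Sars2 (-0.34), Aars2 (-0.28), Yars2 (-0.22), Iars2 (-0.14) and Wars2 (-0.01) also overlapped. Aars2 depended on 1 library, with 9.64 CPM in ACS 1 against 24.7 and 32.3 in ACS 2 and 3, and its log2 fold change was 0.07 without ACS 1. Lars2 (0.09) and Rars2 (0.06) were above 0. Without ACS 1 the log2 fold change was -0.45 for Vars2, -0.21 for Tars2 and -0.10 for Sars2.

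The mitochondrial rows are less abundant than the cytosolic genes, with control means of 2.95 to 56.6 CPM against 20.4 to 176 CPM. The 7960 tested genes within the mitochondrial range had a median log2 fold change of -0.04, and the 4048 within the cytosolic range -0.03. In the mitochondrial set class II enzymes had a median of -0.49 over 8 rows, all below 0, and class I enzymes -0.22 over 9 tested rows.

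Ratios of the cytosolic to the mitochondrial gene for one amino acid compare a pair of transcripts within a library, so they do not move with the scaling between libraries. There were 17 ratios, with Eprs and Fars2 each used in 2 of them and the longer row used for Ears2. All 17 were higher in ACS muscle on average, by a median of 0.66 on the log2 scale. In 11 the groups did not overlap, all upward, and 6 overlapped. The share of separated ratios among other gene pairs was not computed, so this count has no background beside it. Without ACS 1 the median was 0.40 and 16 of 17 were above 0, with the leucine pair at -0.10 as the exception. For each separated ratio the two-sided exact permutation test gave p = 0.1, the smallest that 3 libraries against 3 allow.

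The largest shift was in the cysteine pair. Cars to Cars2 stood at 2.29, 2.58 and 2.88 in Control 1, 2 and 3 and at 33.2, 9.59 and 4.75 in ACS 1, 2 and 3. No ACS library reached down to the controls, and the mean log2 ratio went from 1.35 to 3.46. This difference of 2.11 was 1.37 without ACS 1, the library in which Cars2 had 12 counts. Nars to Nars2 stood at 6.69, 5.21 and 6.32 in the controls and 27.5, 20.9 and 10.4 in the ACS libraries, again fully apart. Tars to Tars2 was 0.717, 0.788 and 0.910 in controls, where the mitochondrial gene had more counts, and 3.41, 1.80 and 1.17 in ACS libraries, where the cytosolic gene did. The threonine pair thus changed order in all 3 ACS libraries on this CPM scale, which does not correct for gene length.

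Smaller but separated shifts in the log2 ratio included those of Eprs to Ears2 (1.52), Eprs to Pars2 (1.48), Hars to Hars2 (1.15), Yars to Yars2 (0.83), Farsa to Fars2 (0.50), Vars to Vars2 (0.48) and Iars to Iars2 (0.35). Without ACS 1 the histidine shift was 0.72 and the tyrosine shift 0.46. The isoleucine controls were tightly grouped at 0.762, 0.743 and 0.788, which let a small shift separate. The alanine, arginine, leucine, serine, tryptophan and Farsb to Fars2 ratios overlapped. Aars to Aars2 had a difference of 1.13 that fell to 0.36 without ACS 1.

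**Figure D5:**
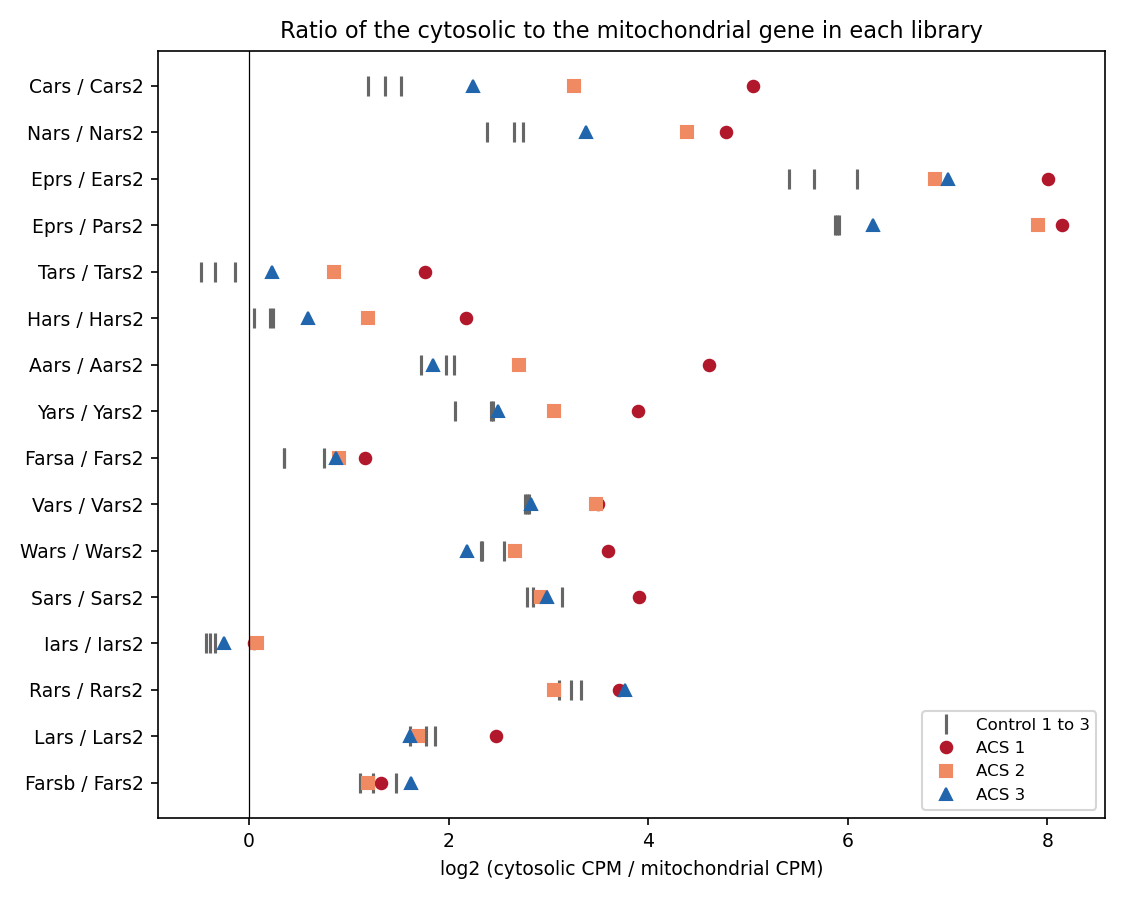
Log2 ratio of cytosolic to mitochondrial CPM (x axis) for the pairs described here (rows) in each library, with grey ticks for the 3 controls and coloured symbols for ACS 1, 2 and 3. In the separated pairs all 3 symbols lie right of the ticks, as in Cars to Cars2, and ACS 1 is the farthest right in most pairs.

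Hars and Hars2 are neighbours that point away from each other, so the pair can also be read at its locus. On Rnor 6.0 Hars (ENSRNOG00000028105, chr18:29611547-29629087, minus strand) and Hars2 (ENSRNOG00000016087, chr18:29629184-29638721, plus strand) are separated by 96 bases. Hars measured 20.8, 23.0 and 22.7 CPM in the controls and 49.97, 31.2 and 24.9 CPM in ACS 1, 2 and 3. Hars2 measured 17.6, 19.8 and 21.9 CPM in the controls and 11.04, 13.6 and 16.6 CPM in the ACS libraries. Each gene was fully separated, Hars upward and Hars2 downward, with log2 fold changes of 0.67 (SE 0.301; edgeR adjusted p = 0.219) and -0.52 (SE 0.263; edgeR adjusted p = 0.269). Their ratio was 1.18, 1.16 and 1.04 in controls and 4.53, 2.29 and 1.51 in ACS libraries.

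The stretch between the 2 annotated starts is shown because both genes are read outward from it. In RefSeq's GRCr8 it spans 97 bases, with 55.7% G and C, and is printed on the plus strand, the direction of Hars2. None of the 5 motifs searched was found in the Hars promoter window that covers it, so no letters are in capitals.
Hars to Hars2, chr18:28672713-28672809, plus strand: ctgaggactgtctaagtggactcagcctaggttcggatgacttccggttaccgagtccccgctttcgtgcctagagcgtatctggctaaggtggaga

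Other synthetases also start back to back with a neighbour. Within 1000 bases 9 tested members had a divergent partner on Rnor 6.0, among 9.14% of all tested genes. The Kars start lies 93 bases from that of Terf2ip, a telomere-binding protein gene, which measured 18.0, 18.5 and 18.1 CPM in controls and 72.4, 180 and 74.6 CPM in ACS libraries. Terf2ip rose (log2 fold change 2.58, edgeR adjusted p = 0.0179), while Kars was at -0.05. Yars lies 340 bases from S100pbp, which fell (log2 fold change -1.77, edgeR adjusted p = 0.0439) while Yars was at 0.66. S100pbp did not pass without ACS 2 (edgeR adjusted p = 0.0869), and neither neighbour passed without any 1 control library or without the pair of "ji" libraries. With a control library left out, 0 genes of the whole table passed. Others were Sars2 with Mrps12 (15 bases), the longer Ears2 row with Ubfd1 (6), Rars2 with Orc3 (72) and Fars2 with Lyrm4 (311), where no partner passed. These neighbours were named after their values were seen.

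Both Mars and Rars2 overlap another transcribed gene on the opposite strand, and no source used here gives the strand setting of the counting. Mars shares 72 bases with Ddit3 and Rars2 shares 7544 bases with Slc35a1, so part of their reads may not be told apart.

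Genes around the synthetases were read from lists. Of 11 scaffold and elongation factor genes 0 were called by edgeR, 2 (18.2%, against 15.5% of all genes) had an unadjusted p under 0.05 upward and 0 downward. DESeq2 called 1 (Eef1e1) and limma-voom 0. The most abundant, Eef1a2, the elongation factor 1A of muscle and nerve that carries charged transfer RNA to the ribosome, had overlapping groups (log2 fold change -0.40, edgeR adjusted p = 0.546). Eef1e1, the complex scaffold, was named after its values were seen: it measured 7.66, 8.27 and 7.27 CPM in controls and 20.4, 18.3 and 13.4 CPM in ACS libraries. Its groups were far apart, with a log2 fold change of 1.17 (edgeR adjusted p = 0.0542, with 0.0497 without ACS 1 and 0.0213 without ACS 3). Xpot, which exports transfer RNA from the nucleus, was the other gene separated upward (0.79), and the scaffold Aimp2 was separated downward (-0.28).

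Of 10 genes of mitochondrial transfer RNA amidation and translation 0 were called by edgeR, 0 had an unadjusted p under 0.05 upward and 2 (20%, against 7.98% of all genes) downward. DESeq2 and limma-voom called 0 as well. All 10 had log2 fold changes below 0, with a median of -0.30. The most abundant, Tufm, the mitochondrial elongation factor, measured 120, 86.1 and 87.0 CPM in controls and 35.8, 74.4 and 84.9 CPM in ACS libraries (log2 fold change -0.59, edgeR adjusted p = 0.343, or -0.30 without ACS 1). Its ACS libraries were all lower, ACS 3 by little. Named after their values were seen, Qrsl1 and Gatb, subunits of the amidation enzyme, and Mtfmt, which formylates the initiator, were also separated downward (-1.10, -0.44 and -1.10). Qrsl1 passed without ACS 3 (edgeR adjusted p = 0.0431).

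Of 29 genes of the ATF4 integrated stress response 26 were tested, and 4 rose and 0 fell, beside 3.43% and 0.707% of all genes. At an unadjusted p under 0.05 edgeR had 11 higher (42.3%, against 15.5% of all genes) and 1 lower (3.85%, against 7.98%). Slc7a5, which imports large neutral amino acids, measured 0.975, 1.35 and 0.702 CPM in controls and 113, 30.8 and 33.5 CPM in ACS 1, 2 and 3. The groups were far apart (log2 fold change 5.87, edgeR adjusted p = 0.00994). Ppp1r15a, which directs the phosphatase that ends the response, rose by 2.10 (edgeR adjusted p = 0.0387), and Mthfd2, a mitochondrial folate enzyme, by 3.14 (edgeR adjusted p = 0.0402). The fourth, Sesn2, a sestrin that restrains growth signalling, was at 2.06 (edgeR adjusted p = 0.0406) and is named outside the rule. Mthfd2 was at 2.14 and Slc7a5 at 4.99 without ACS 1. Without ACS 2 only Slc7a5 of these 4 passed (edgeR adjusted p = 0.0191, against 0.0779, 0.0534 and 0.0747 for Ppp1r15a, Mthfd2 and Sesn2), and without any 1 control library none of the 4 did (0.0701 to 0.193). In the fits without a control library, 0 genes of the whole table passed. Without both "ji" libraries Slc7a5 (0.0328) and Sesn2 (0.0498) passed. DESeq2 called 7 of the list higher and limma-voom 2, beside 1320 of 18776 and 262 of 12873 over all genes.

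The list's median log2 fold change was 0.75. Atf4 itself, named after its values were seen, measured 222, 233 and 245 CPM in controls and 507, 369.9 and 258 CPM in ACS libraries. Its groups were separated by little in ACS 3, and it was not called (log2 fold change 0.70, edgeR adjusted p = 0.221, or 0.43 without ACS 1). Of 10 interferon response genes 2 rose, Cxcl10, a chemokine (log2 fold change 4.93, edgeR adjusted p = 0.0311, or 3.67 without ACS 1), and Ifit3, an interferon-induced gene (3.16, edgeR adjusted p = 0.0352, or 2.11 without ACS 1). Over all genes edgeR called 3.43% higher. At an unadjusted p under 0.05 it had 4 of the 10 higher (40%, against 15.5% of all genes) and 0 lower (against 7.98%). Cxcl10 was at 0.341, 0.193 and 0.0826 CPM in controls, so it could pass the filter on low counts through the ACS libraries. Neither gene passed without any 1 control library (0.131 to 0.187), where 0 genes of the whole table passed, or without both "ji" libraries (0.0565 and 0.0788). Wars, a textbook interferon target, measured 29.6, 30.9 and 23.6 CPM in controls and 46.4, 38.5 and 26.3 CPM in ACS libraries, with overlapping groups and a log2 fold change of 0.40 (edgeR adjusted p = 0.418).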

How the data were processed

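Ribosomal RNA was depleted from total RNA and libraries were sequenced, per the labels' protocols. The deposited table holds read counts per gene, whole numbers that the authors did not normalize, and FPKM values, which in all 37 members with counts equal the count divided by gene length and library total to within 0.0027% between libraries. Per the submitters' processing notes, the tools were HISAT2 2.0.4 and StringTie 1.3.0 on Rnor 6.0. The counting tool, its strand setting and its handling of multiply matching reads were not given in the sources used here.

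Counts were tested with edgeR 4.0.16 in R 4.3.3: filterByExpr (minimum count 10, minimum total 15) left 12873 of 30957 genes, and the quasi-likelihood test of group used TMM factors and Benjamini-Hochberg adjustment over all of them, with a threshold of 0.05. Standard errors come from the F statistic. Log2 CPM deviations used a prior count of 2. The test was also run on simulated data. Every pair of libraries differed beyond sampling noise (chi-square per degree of freedom 40.8 to 777). Alternatives, 20 in all, covered scaling, DESeq2 1.42.0, limma 3.58.1 (voom, and log2 FPKM with pseudocounts of 1 and 0.1), filters, a replicate block, the "ji" libraries and each library left out.

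Members and lists were chosen with earlier results of these data known. Values per library are given for the 3 members of each compartment with the smallest p, and for list genes past the threshold (up to 3) or the most abundant one. Values per library printed for other genes are outside this rule, and only some are marked so. Among those not marked are Gars, Hars, Hars2, Wars, Aars2 and the longer Ears2 row. Some items that enter the counts and medians are not reported here by name. Promoters came from RefSeq (GRCr8) and matched 34 of 38 rows; gene positions came from the deposited table.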

Additional observations from a re-analysis of the deposited data

How the results depend on the processing

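The cytosolic median minus the mitochondrial median of the log2 fold change was 0.76 and stayed positive in all 20 alternatives, from 0.53 without ACS 1 to 1.00 without both "ji" libraries. The cytosolic median alone was -0.0441 by library totals (all genes -0.32), -0.0370 with FPKM + 1 (all genes -0.30) and -0.0381 with FPKM + 0.1 (all genes -0.37), and lay above 0 in the others. Of the members, 13 of 20 cytosolic and 13 of 17 mitochondrial rows kept their sign in every alternative that tested them.

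Of cytosolic genes 1 was called higher (Tars) with DESeq2, with limma-voom quality weights and without ACS 3. Of mitochondrial rows 1 was called lower by library totals, DESeq2, limma-voom quality weights, FPKM + 1, FPKM + 0.1, no filter, the filter of 50 counts and the summed Ears2 rows (chosen after seeing the data). Leaving out each library gave 0 to 1 cytosolic genes higher and 0 to 4 mitochondrial rows lower.

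Over all genes DESeq2 called 1320 higher and 429 lower, limma-voom 262 and 71, quality weights 1059 and 356, library totals 345 and 228, FPKM + 1 249 and 268, FPKM + 0.1 199 and 131, no filter 755 and 153, a term for the "ji" libraries 233 and 31, and leaving both out 171 and 30. Leaving out each library gave 0 to 1286 higher and 0 to 398 lower, with 0 for each control.

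Libraries of the same replicate number showed little correlation of their deviations (-0.06, 0.01 and 0.04 for replicates 1, 2 and 3). The labels do not say whether these numbers mark a shared rat or batch, and 3 libraries per group are too few to tell. With the replicate block, 460 genes were higher and 63 lower, 0 members were called, and the difference of the medians was 0.75. The common biological coefficient of variation was 0.381, and 11 mitochondrial rows had 10 to 60 counts in ACS 1. Whether this bears on the lack of calls was not tested.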
